A study of Mus musculus with 6 samples.

Results

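The genes described here are 4 receptors for fibroblast growth factors (Fgfr1, Fgfr2, Fgfr3 and Fgfr4), 3 Sprouty genes (Spry1, Spry2 and Spry4), 2 Sprouty-related genes (Spred1 and Spred2) and the ligand gene Fgf2. They were taken by gene symbol from a table of 22706 mouse genes measured in muscle stem cells (MuSCs). Each of the 10 symbols occurred once in the table. Of the 10 genes, 9 were among the 15915 genes that were tested, and Fgfr2 was not, because its mean of 3.33 lay below the minimum mean of 5.

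RNA was measured in 6 libraries of freshly isolated MuSCs in 3 groups of 2. Control mice were wild type, and mdx mice carried the mdx allele of the dystrophin gene on the X chromosome and so lacked functional dystrophin. Sirt6mKO/mdx mice carried the mdx allele together with a floxed Sirt6 gene, a Pax7-ICN allele and ROSA26-YFP. In these mice, Cre expressed from the Pax7 promoter removes Sirt6, a deacetylase of chromatin, throughout the muscle lineage and not at a chosen time. All libraries were labelled C57BL/6, although the mdx stock was C57BL/10ScSn-Dmdmdx/J. Mice of the 3 groups were described as males, and the legends of the plots that use these libraries give ages of 8 to 12 weeks (control and mdx), 12 weeks and 12 to 16 weeks. Cells were sorted by flow cytometry, either as Integrin-a7+ and CD34+ cells depleted of Sca1, CD45 and CD31 or by a fluorescent reporter, and the gate used for each library was not stated. The methods describe the libraries of a group as biological replicates, without naming the animals of each. The p-values rest on the spread between these libraries, pooled with that of other genes of similar level.

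Fibroblast growth factors bind receptor tyrosine kinases together with heparan sulfate, and the receptors signal through the adaptor FRS2 and the RAS-ERK cascade. Sprouty and Spred proteins inhibit this cascade, and several of their genes are transcribed in response to it, which closes a negative feedback loop. In muscle, FGF2 stimulates MuSCs to divide, FGFR1 and FGFR4 are the receptors best known in these cells, and Spry1 is known for its part in the quiescence of MuSCs.

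Values are normalized read counts as deposited by the authors, rounded to whole numbers, and behind them lay approximately 4396558 to 9746138 reads per library. Several features of whole libraries moved with the groups. The normalized values summed to 9626453 and 8883310 in the Sirt6mKO/mdx-labelled libraries and to 5564142 to 6642949 in the other 4, and the 10 most abundant genes held 32.6% and 30.0% of the sum in the former and 11.8% to 22.9% in the latter. Xist, the long noncoding RNA of X inactivation, had values of 16772 and 12950 in the control libraries and of 7 to 34 in the other 4, against the description of the control mice as males, so sex and genotype cannot be told apart in comparisons with control. The summed level of 22 immediate early and dissociation response genes ranged from 159926 to 174186 in control, from 24844 to 27695 in mdx and from 123808 to 131711 in the Sirt6mKO/mdx-labelled libraries. All 22 passed the test in mdx against control (lower) and in Sirt6mKO/mdx against mdx (higher). Sums over 10 myofibre genes were 8368 to 11573, 1956 to 5445 and 6252 to 11702 in the same order, those over 10 fibro-adipogenic genes were 29310 to 35805, 35853 to 46188 and 26889 to 34084, and those over 12 MuSC genes were 40214 to 40418, 35904 to 39716 and 39469 to 45954. Of these, 5 myofibre genes were called lower in mdx against control and 4 higher in Sirt6mKO/mdx against mdx, 2 fibro-adipogenic genes were called higher in mdx against control and 1 lower in Sirt6mKO/mdx against mdx. Of the 12 MuSC genes, 2 were called lower in mdx against control, 1 higher in Sirt6mKO/mdx against mdx and 3 lower in Sirt6mKO/mdx against control. Smooth muscle and pericyte genes summed to 8961 to 9469, 7743 to 9026 and 4689 to 4976, with 1 of 8 called higher in mdx against control, 1 lower in Sirt6mKO/mdx against mdx and 2 lower in Sirt6mKO/mdx against control. Endothelial genes summed to 843 to 951, 441 to 458 and 654 to 668, with 2 of the 8 tested called lower in mdx against control. Schwann genes summed to 580 to 887, 826 to 1125 and 471 to 516. Leukocyte genes summed to 107 to 132, 94 to 109 and 166 to 190, with 1 of 4 called higher and 1 lower in mdx against control and 1 higher in Sirt6mKO/mdx against control. Several of these sums rest mostly on few genes. Col3a1 and Gsn held most of the fibro-adipogenic sum, and Notch3 most of the smooth muscle and pericyte sum. Pmp22 held most of the Schwann sum, and Tek most of the endothelial sum. Pdgfra, of the fibro-adipogenic list, had values of 15 and 59, 195 and 18, and 142 and 19, which differed between replicates. No listed marker in the table was at 0 in every library. Sirt6 itself had values of 41 and 32 in control, 33 and 40 in mdx, compared with 37 and 30 in the third group. The deletion covers only part of the gene, and per-gene values could not show it, so for these libraries the group is named by its label. In other assays, the paper reports raised acetylation of a histone site that SIRT6 deacetylates in Sirt6mKO/mdx MuSCs. By RT-qPCR it also reports more Sirt6 RNA in mdx than in control MuSCs, which the values here did not show.

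Per exonic length, the 10 genes spanned a wide range of levels. Averaged over the 6 libraries, Fgfr4 had the highest level at 761.5 normalized reads per kb of exon, followed by Spry1 at 657 and Fgfr1 at 386. Spry2 followed at 245.3, Spred1 at 102.6, Spred2 at 79.8 and Spry4 at 68.2. At the low end, Fgfr3 reached 4.80, Fgf2 1.99 and Fgfr2 0.323 reads per kb. Neighbours in this order overlapped over the 6 libraries, except that every Spry2 level lay above every Spred1 level, every Spry4 level above every Fgfr3 level and every Fgf2 level above every Fgfr2 level. Lengths were summed over the exons of all annotated transcripts, which lowers the level of genes with many isoforms.

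**Figure D1:**
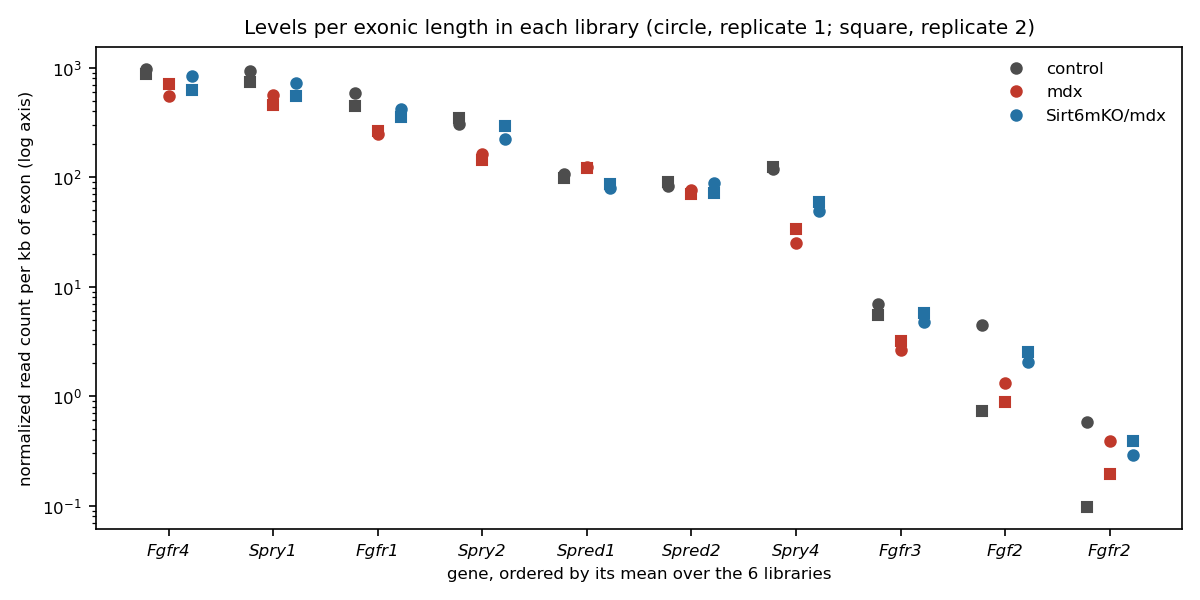
Normalized read counts per kb of exon (log axis) of the 10 genes in each of the 6 libraries, ordered by their mean, with circles for replicate 1, squares for replicate 2 and colours for the 3 groups. Fgfr4, Spry1 and Fgfr1 lay at 247.5 reads per kb or above in every library, and Fgfr3, Fgf2 and Fgfr2 at 6.99 or below.

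The place of Spry4 in this order differed between the groups. In control, Spry4 had 118.2 and 124.3 reads per kb, above both Spred1 levels of 105.8 and 98.0. In mdx, Spry4 had 25.2 and 33.4 reads per kb, below both Spred2 levels of 75.8 and 69.7. In the Sirt6mKO/mdx-labelled libraries, Spry4 had 49.2 and 59.1 reads per kb, again below both Spred2 levels of 88.1 and 71.7. Within a library, the ratio of Spry4 to Spry1 per kb was 0.128 and 0.169 in control, 0.0453 and 0.0738 in mdx, with 0.0675 and 0.108 in the third group, so that control lay above the other groups and these overlapped each other.

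In mdx against control, Spry4, Spry2 and Fgfr1 had lower values in mdx and were called. A gene was called when its adjusted p (limma on log2(value + 1), Benjamini-Hochberg over all genes tested) was at most 0.05 and its change was at least 2-fold. In bulk samples, fewer cells of a type and less RNA per cell cannot be told apart. The called genes were 3 of the 9 tested, all lower, against 7.34% of all genes called lower and 6.89% called higher. The median log2 fold change of the 9 was -0.71 and that of all genes tested was 0.00. The groups did not overlap for 8 of the 9, against 57.0% of all genes. In Sirt6mKO/mdx against mdx, limma called 0 of 9, with 3 at an unadjusted p under 0.05 (Spry4 and Spry2 higher, Spred1 lower), against 5.62% of all genes called higher and 2.54% called lower. The median of the 9 was 0.58, beside 0.02 for all genes, and 6 did not overlap, against 56.0% of all genes. In Sirt6mKO/mdx against control, Spry4 was the 1 gene called, lower, against 2.68% of all genes called lower and 5.19% called higher. Here the median of the 9 was -0.34, beside 0.01 for all genes, and 6 did not overlap, against 51.6% of all genes. Scaling the libraries to equal totals moved the median of all genes to -0.58 in both comparisons of Sirt6mKO/mdx. The log2 differences of the 9 then ran from -1.19 (Spred1) to 0.40 (Fgf2) against mdx and from -1.77 (Spry4) to -0.28 (Fgf2) against control, and the genes called were Spred1 in the first and Spry4 and Fgfr1 in the second.

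**Figure D2:**
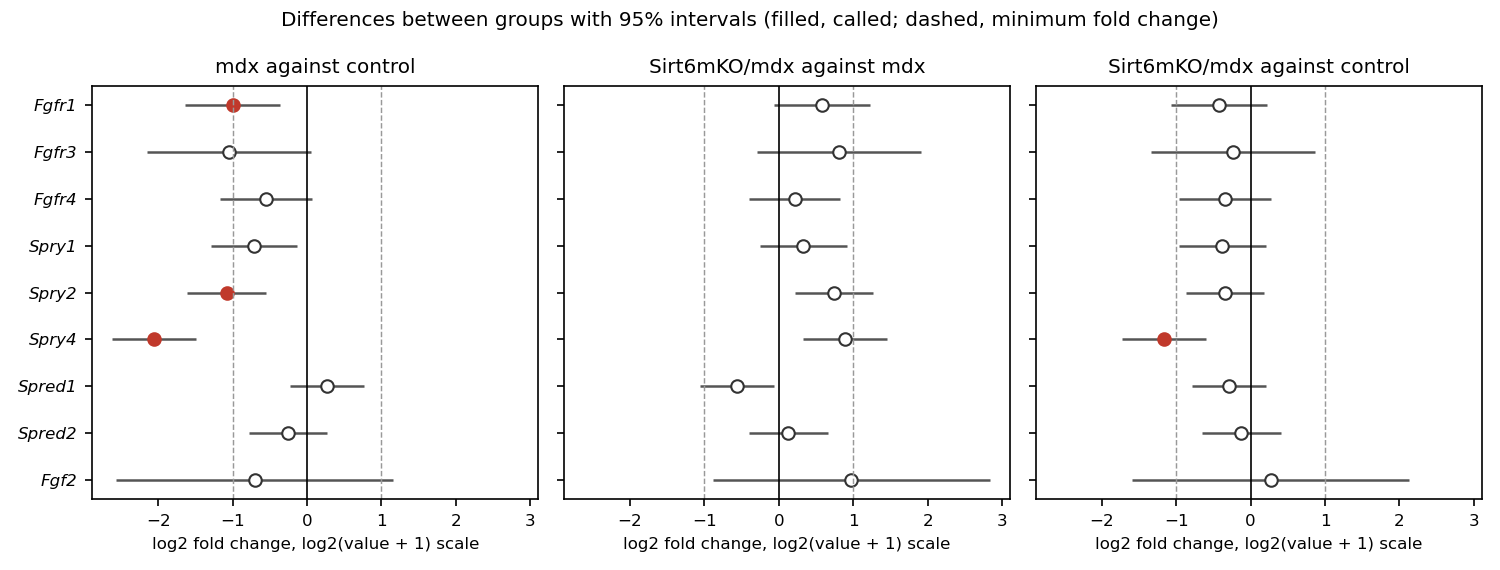
Log2 fold changes on the log2(value + 1) scale with 95% intervals for the 9 tested genes in the 3 comparisons, with filled points for called genes and dashed lines at the 2-fold minimum. Fgfr1, Spry2 and Spry4 were called lower in mdx against control, none was called in Sirt6mKO/mdx against mdx, and Spry4 was called lower in Sirt6mKO/mdx against control; with equal library totals Fgfr1, Fgfr4, Spry1 and Spred2 in the second panel and Fgf2 in the third changed sign.

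Among the receptors, Fgfr1 was the member that was called in mdx against control, with lower values in mdx. Fgfr1 lies on the plus strand of chromosome 8 at 25513654 to 25575714 (GRCm38). Its values were 5832 and 4395 in control, 2444 and 2619 in mdx, and then 4098 and 3481 in the Sirt6mKO/mdx-labelled libraries. The 3 groups did not overlap, with control highest, mdx lowest and the third group between them. Fgfr1 fell by 1.0005 on the log2 scale in mdx against control (SE 0.30, limma adjusted p = 0.0341). This value lay at the 2-fold limit, and 11 of 18 alternatives did not call it. Over the 18 the log2 fold change ran from -1.20 to -0.68. The 11 included a fit without control replicate 1 (-0.80), without mdx replicate 1 (-0.95), without mdx replicate 2 (-1.05) and without either replicate of the third group. Against mdx, the Sirt6mKO/mdx-labelled libraries gave a difference of 0.58 (SE 0.30, limma adjusted p = 0.2497), which was not called and was -0.05 when libraries were scaled to equal totals. Gm16159, an antisense gene that shares 164 exonic bases with Fgfr1, had values of 199 and 88, 31 and 51, and 107 and 99 in the same group order. Without stated use of strand, the reads of the shared bases cannot be assigned to either gene. Gm16159 was chosen after its values were seen.

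Fgfr4, on the plus strand of chromosome 13 at 55152640 to 55168759, is a receptor of the myogenic lineage. It had values of 3441 and 3081 in control, 1948 and 2521 in mdx, compared with 2979 and 2214 in the Sirt6mKO/mdx-labelled libraries. Both mdx values lay below both control values, and the third group overlapped mdx. The difference was -0.55 in mdx against control (SE 0.29, limma adjusted p = 0.209), with an interval of -1.17 to 0.06 (95%), and 0.21 in Sirt6mKO/mdx against mdx (SE 0.29, limma adjusted p = 0.695). The second of these turned to -0.41 with equal library totals and to -0.21 after centring by GC content. The first became -0.24 with that centring (limma adjusted p = 0.624). Per kb, the ratio of Fgfr1 to Fgfr4 was 0.608 and 0.512 in control, 0.450 and 0.373 in mdx, with 0.493 and 0.564 in the third group, so Fgfr4 had the higher level per kb in every library.

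Fgfr3 and Fgfr2 were rare. Fgfr3, on the plus strand of chromosome 5 at 33721724 to 33737068, had values of 50 and 39 in control, 19 and 23 in mdx, and then 34 and 41 in the third group. Its mdx values were the lowest of the 3 groups and overlapped neither of the others. These rested on approximately 22 to 51 reads per library, and the difference of -1.04 in mdx against control did not pass the test (SE 0.52, limma adjusted p = 0.186). Fgfr3 also shares 998 exonic bases with G630022F23Rik on the opposite strand. Fgfr2, on the minus strand of chromosome 7 at 130162451 to 133123350, had values of 6 and 1, 4 and 2, and 3 and 4, from approximately 18 reads over all libraries. It shares 314 exonic bases with Ctbp2 on the same strand. At this depth no difference in Fgfr2 was detectable.

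Fgf2, on the plus strand of chromosome 3 at 37312519 to 37405377, encodes a ligand of these receptors. Its values were 30 and 5 in control, 9 and 6 in mdx, compared with 14 and 17 in the Sirt6mKO/mdx-labelled libraries, from approximately 6 to 20 reads per library. The control libraries differed from each other by more than the group means did. The difference was -0.70 in mdx against control (SE 0.87, limma adjusted p = 0.626) and 0.97 in Sirt6mKO/mdx against mdx (SE 0.87, limma adjusted p = 0.529). Without control replicate 1 the first became 0.48, and without control replicate 2 it became -1.89. Nudt6, which lies antisense to Fgf2 and shares 640 exonic bases with it, had values of 32 and 19, 16 and 24, and 20 and 45. Fgf2 also shares 255 exonic bases with Gm43439 on the same strand, where reads that fall on both genes were left out of the counts.

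**Figure D3:**
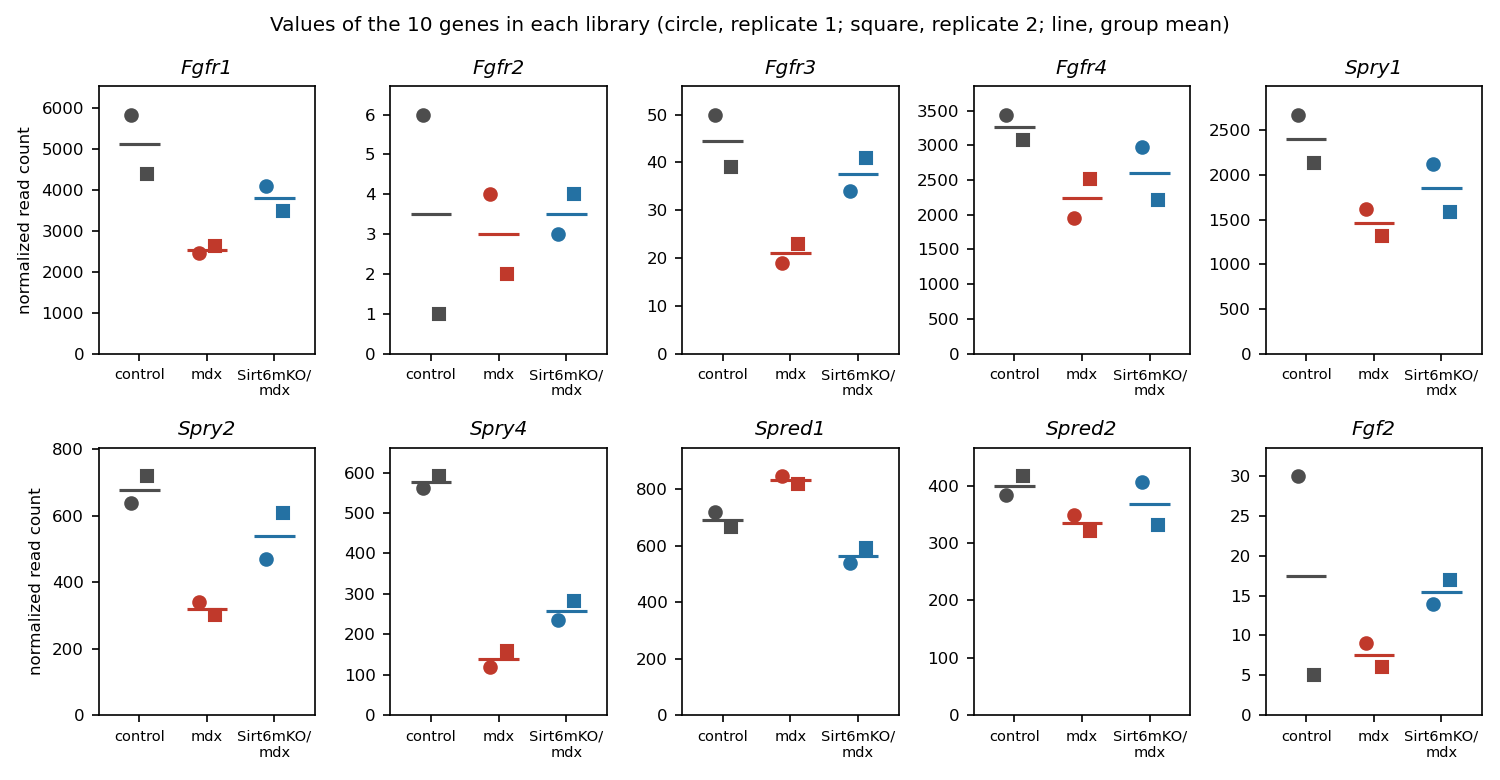
Normalized read counts of the 10 genes, with an axis from 0 in each panel, circles for replicate 1, squares for replicate 2 and lines for the means of groups of 2. The mdx values were the lowest for Fgfr1, Spry2 and Spry4 and the highest for Spred1, while Fgfr2 and Fgf2 lay at 30 or below throughout.

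All 3 Sprouty genes had lower values in mdx than in control, and Spry4 and Spry2 were called. Spry4 lies on the minus strand of chromosome 18 at 38586268 to 38601268. Its values were 562 and 591 in control, 120 and 159 in mdx, with 234 and 281 in the Sirt6mKO/mdx-labelled libraries, giving means of 576.5 ± 20.5, 139.5 ± 27.6 and 257.5 ± 33.2 (SD, n = 2 each). The groups were apart by more than the spread of their libraries, with mdx lowest and the third group below control. Spry4 fell by 2.05 on the log2 scale in mdx against control (SE 0.26, limma adjusted p = 0.000104), which is 4.15-fold. It was called under all 18 alternatives, with values from -2.25 to -1.81.

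Spry4 was 1.85-fold higher in the Sirt6mKO/mdx-labelled libraries than in mdx, a log2 difference of 0.89 (SE 0.26, limma adjusted p = 0.0486). This passed the limit on the adjusted p but not the 2-fold minimum, and so was not called. With equal library totals it was 0.26 (limma adjusted p = 0.586). The adjusted p was also above 0.05 without mdx replicate 1 (0.304), mdx replicate 2 (0.1), Sirt6mKO/mdx replicate 1 (0.192) or Sirt6mKO/mdx replicate 2 (0.253), in limma fits in which the difference ran from 0.69 to 1.09. It lay between 0.0564 and 0.204 under 5 further limma alternatives. Against control, Spry4 fell by 1.17 in these libraries (SE 0.26, limma adjusted p = 0.0139) and was called. That call was lost under 5 of 18 alternatives. Of these, 3 were fits without control replicate 2 (-1.13), without Sirt6mKO/mdx replicate 1 (-1.03) and without Sirt6mKO/mdx replicate 2 (-1.30). The others used no minimum mean (limma adjusted p = 0.0751) or one prior variance for all genes (limma adjusted p = 0.141). The comparisons share libraries, so a low mdx value enters both the first and the second.

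Spry2 lies on the minus strand of chromosome 14 at 105891949 to 105896819. Its values were 637 and 719 in control, 340 and 300 in mdx, and then 469 and 607 in the Sirt6mKO/mdx-labelled libraries. The groups did not overlap, and their order was that of Spry4. Spry2 fell by 1.08 on the log2 scale in mdx against control (SE 0.25, limma adjusted p = 0.00804). Without control replicate 2 or without mdx replicate 2 the log2 fold change was -0.99, under the 2-fold minimum, and it was not called. Spry2 was also not called with one prior variance for all genes (limma adjusted p = 0.0969). The difference from mdx in the Sirt6mKO/mdx-labelled libraries was 0.74 (SE 0.25, limma adjusted p = 0.0759), and against control it was -0.34 (SE 0.25, limma adjusted p = 0.432). With equal library totals these became 0.11 (limma adjusted p = 0.819) and -0.95 (limma adjusted p = 0.0323), still under the 2-fold minimum.

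Spry1, the most abundant Sprouty gene per kb, lies on the plus strand of chromosome 3 at 37639947 to 37644598. Its values were 2677 and 2138 in control, 1618 and 1316 in mdx, compared with 2120 and 1586 in the third group. The mdx values lay below both control values and overlapped the third group. The log2 difference was -0.71 in mdx against control (SE 0.27, limma adjusted p = 0.0894) and 0.33 in Sirt6mKO/mdx against mdx (SE 0.27, limma adjusted p = 0.493), or -0.30 with equal library totals. After centring by GC content these differences were -0.39 (limma adjusted p = 0.389) and 0.0221, in the same order. Spry1 shares 710 exonic bases with Gm42922 on the opposite strand.

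Spred1 and Spred2 did not pass the test in any comparison. Spred1, on the plus strand of chromosome 2 at 117121374 to 117182279, had values of 718 and 665 in control, 846 and 819 in mdx, with 537 and 592 in the Sirt6mKO/mdx-labelled libraries. Its groups did not overlap, with mdx highest and the third group lowest, whereas mdx had the lowest mean of each Sprouty gene. The log2 difference was 0.27 in mdx against control (SE 0.23, limma adjusted p = 0.472), or -0.07 after centring by GC content. For Sirt6mKO/mdx against mdx it was -0.56 (SE 0.23, limma adjusted p = 0.147). With equal library totals the latter became -1.19 and was called. Spred2, on the plus strand of chromosome 11 at 19924375 to 20024026, had values of 384 and 417, 350 and 322, and 407 and 331. It differed by -0.25 in mdx against control (SE 0.25, limma adjusted p = 0.527), with an interval of -0.78 to 0.27 (95%), the mdx values lying just below those of control. After centring by GC content this difference was -0.0035 (limma adjusted p = 0.994). Per kb, the ratio of Spred1 to Spred2 was 1.27 and 1.09 in control, 1.65 and 1.73 in mdx, and then 0.898 and 1.22 in the third group, so mdx lay above the other 2 groups, which overlapped.

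Sequences before the start sites are shown for Spry1 and Spry2, Sprouty genes with the same order of group means, and for Spred1, whose mean was highest in mdx. Each run holds the 200 bases before the start, 5′ to 3′ on the strand of the gene, from the RefSeq table for GRCm38.p6, with matches to the GC box (GGGCGG, searched on both strands) in capitals. The Spry1 run is chr3:37639747-37639946 (plus strand), the Spry2 run chr14:105896820-105897019 (minus strand) and the Spred1 run chr2:117120871-117121070 (plus strand).
Spry1: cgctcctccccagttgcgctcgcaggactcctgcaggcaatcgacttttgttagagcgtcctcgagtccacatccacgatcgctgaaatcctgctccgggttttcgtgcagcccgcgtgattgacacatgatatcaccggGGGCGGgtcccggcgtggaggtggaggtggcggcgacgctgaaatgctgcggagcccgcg
Spry2: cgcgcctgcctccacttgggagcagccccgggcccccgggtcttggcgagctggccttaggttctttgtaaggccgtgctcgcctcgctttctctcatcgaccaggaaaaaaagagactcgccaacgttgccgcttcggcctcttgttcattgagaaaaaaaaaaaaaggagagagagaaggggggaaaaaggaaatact
Spred1: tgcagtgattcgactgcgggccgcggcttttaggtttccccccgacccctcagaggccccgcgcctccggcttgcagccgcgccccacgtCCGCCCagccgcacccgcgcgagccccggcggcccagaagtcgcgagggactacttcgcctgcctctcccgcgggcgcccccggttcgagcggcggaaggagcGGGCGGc

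The printed runs hold 63.5%, 55.0% and 76.0% G and C. Entries of 300 bases (250 before and 50 after the start) were searched for 8 of the 10 genes, and Fgfr1 and Spry4 were not among them. Entries on chromosome 18, where Spry4 lies, were left out of this search, so nothing is said of its promoter. None of the entries searched held the AP-1 motif (TGANTCA), the cyclic AMP response element (TGACGTCA), the ETS motif (CCGGAAG) or the CArG box. Of all 32851 promoter entries, 7.81%, 1.79%, 8.86% and 1.63% held these. The motifs were searched on both strands, and since the GC box alone matched in these entries, no match overlapped that of another motif. The GC box, held by 35.7% of all entries, occurred in those of Fgfr3, Fgfr4, Spry1, Spred1, Spred2 and Fgf2 and not in those of Spry2 and Fgfr2. These matches describe letters in short windows only.

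The sums of the immediate early and dissociation response genes and of the endothelial genes followed the order of groups of Spry4, Spry2 and Fgfr1. For both sums the groups did not overlap, and the myofibre sum was likewise lowest in mdx. Tek held most of the endothelial sum, so this sum does not describe the endothelial list as a whole. Of the 8 endothelial genes tested, 2 were called lower in mdx against control. Cdh5, Cldn5 and Flt1 of that list did not follow this order. The part of these sums in the results was not tested. Cell cycle genes went the other way, with 8 of 16 called higher in mdx against control and 5 of 16 called lower in Sirt6mKO/mdx against mdx. Mki67, a marker of dividing cells, had values of 39 and 80 in control, 252 and 548 in mdx, compared with 99 and 162 in the third group. Pax7, the transcription factor that defines MuSCs, had values of 2754 and 2932, 2167 and 2521, and 3236 and 2433 and was not called in any comparison.

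For the called members, the genes with the most similar pattern were sought among 9666 tested genes with a mean of at least 50, by Pearson's r of log2(value + 1) over the 6 libraries. Because 3 groups set most of the spread, such values describe these libraries only. For Spry4 they were Stk40, a protein kinase gene (r = 0.995), Pus1, a pseudouridine synthase gene (0.993), and Pfkp, a phosphofructokinase gene of glycolysis (0.992). Stk40 had values of 612 and 544 in control, 121 and 163 in mdx, with 260 and 290 in the third group. For Spry2 they were Zfp954 (r = 0.992), Msrb1, a methionine sulfoxide reductase gene (0.984), and Tubb6, a tubulin gene (0.982). For Fgfr1 they were Ern1, a sensor of unfolded proteins in the endoplasmic reticulum (r = 0.998), Slc39a14, a zinc transporter gene (0.998), and Fbxo41 (0.997). None of the 10 genes appeared among these closest patterns of another. Between Spry2 and Spry4 the same r was 0.917, between Fgfr1 and Spry4 it was 0.910, and between Fgfr1 and Fgfr4 it was 0.878. Spred1 had negative values with each of the 6 other genes compared, from -0.577 with Spry2 to -0.353 with Fgfr4. These libraries are shared by all pairs.

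The other genes of the pathway were followed through 5 lists with 87 genes, of which 78 were in the table and 70 were tested. In mdx against control 12 of the 70 were called lower and 1 higher, beside 7.34% and 6.89% of all genes. All 12 but 1 were targets of ERK or feedback inhibitors, namely 8 of 15 ETS and other ERK target genes and 3 of 12 other feedback inhibitors, and the remaining gene was Fgf13, an intracellular homologue and 1 of 6 tested genes of the ligand list. The lowest were Ier3, an immediate early gene (-3.43, SE 0.36), Errfi1, an inhibitor of the EGF receptor (-3.33, SE 0.29), Ets2, an ETS transcription factor (-3.02, SE 0.26), Myc (-2.85, SE 0.24) and Fos (-2.83, SE 0.35). Flrt2, a membrane protein gene of the list of co-receptors and FGF binding proteins, was the gene called higher (1.27, SE 0.28). The 13 calls became 8 without mdx replicate 1 and 7 with one prior variance for all genes. None of the 22 adaptor and cascade genes was called by limma. Medians were -1.32 for the ERK targets, -0.34 for the feedback inhibitors and -0.19 for the cascade, beside 0.00 for all genes.

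Of the 12 genes called lower, 4 (Ier3, Myc, Fos and Egr1) also stand in the list of immediate early and dissociation response genes given above. Fos had values of 10775 and 14930 in control, 1654 and 1921 in mdx, and then 8993 and 10412 in the Sirt6mKO/mdx-labelled libraries. Egr1 had values of 12387 and 16203, 2544 and 3725, and 15723 and 14748. For both genes mdx was lowest, as for Spry4, while the third group reached the control range in Egr1 and not in Spry4.

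Some ERK-responsive genes were not called. Dusp6, a phosphatase of ERK, had values of 199 and 272 in control, 235 and 254 in mdx, compared with 333 and 248 in the third group. Etv5, an ETS factor downstream of FGF receptors, had values of 202 and 288, 189 and 187, and 152 and 153. Both missed the threshold in every comparison. Spred3, the third Spred gene, was called lower in mdx (-1.76, SE 0.42, limma adjusted p = 0.00974), with values of 154 and 89, 26 and 44, and 98 and 121. It was called higher in Sirt6mKO/mdx against mdx (1.66, SE 0.42, limma adjusted p = 0.0229), unlike Spred1 and Spred2, whose differences from Spred3 were not tested. Fgf13, Dusp6, Etv5 and Spred3 were chosen after their values were seen.

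**Figure D4:**
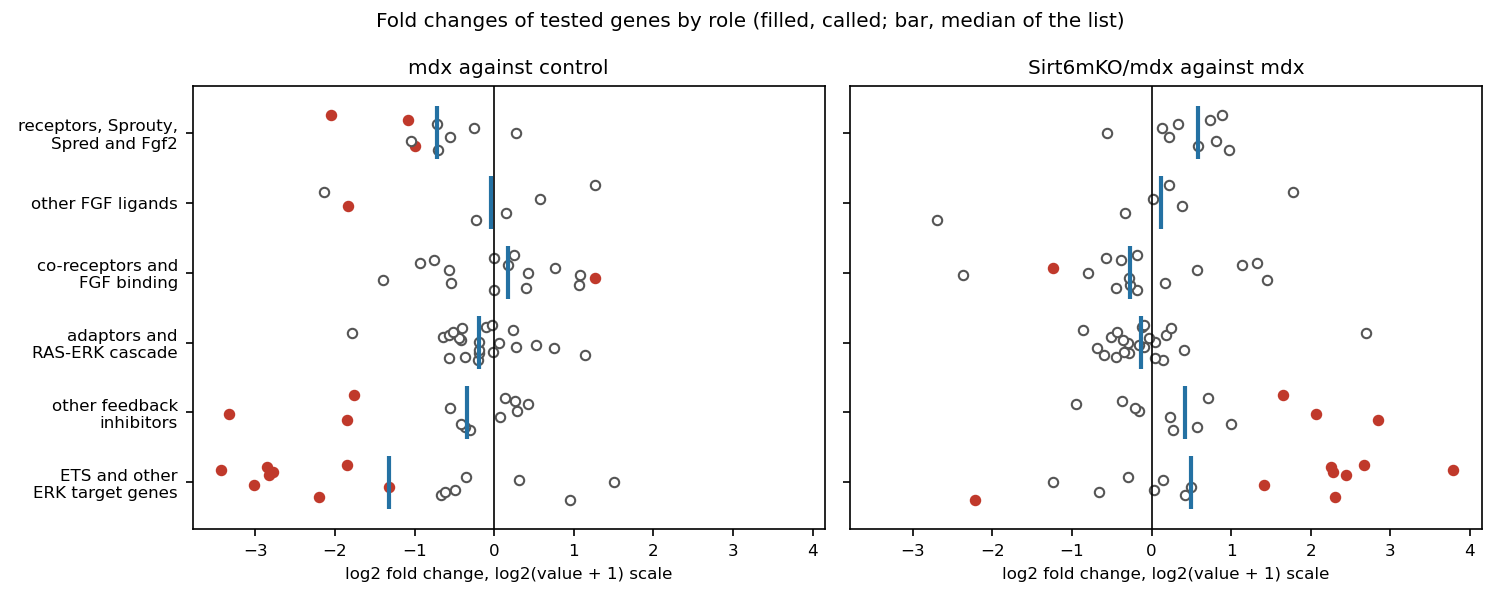
Log2 fold changes on the log2(value + 1) scale of all tested genes by role, in mdx against control and in Sirt6mKO/mdx against mdx, with filled points for called genes and bars for the median of each list. Most called genes were ERK targets or feedback inhibitors, on the lower side at left and the higher side at right, and no gene of the adaptors and RAS-ERK cascade was filled; with equal library totals 14 of the 70 pathway genes were called lower at right.

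In Sirt6mKO/mdx against mdx, 10 of the 70 pathway genes were called higher and 2 lower, beside 5.62% and 2.54% of all genes. The highest were Ier3 (3.79, SE 0.36), Dusp5, a nuclear phosphatase of ERK (2.84, SE 0.49), Phlda1 (2.67, SE 0.28), Fos (2.44, SE 0.35) and Egr1 (2.31, SE 0.40). Of the 10 called higher, 4 (Ier3, Fos, Egr1 and Myc) also stand in the list of immediate early and dissociation response genes. The genes called lower were Ccnd1, a cyclin of the G1 phase (-2.22, SE 0.34), and Hs6st2, a heparan sulfate sulfotransferase gene (-1.24, SE 0.27). With equal library totals the count was 8 higher and 14 lower. It was 7 in all without Sirt6mKO/mdx replicate 1, 6 without Sirt6mKO/mdx replicate 2, 7 without a minimum mean and 0 with a single prior variance. Against control, 0 of 70 were called higher and 6 lower, beside 5.19% and 2.68% of all genes. They were Ets2 (-1.61), Elk3 (-1.28), Errfi1 (-1.26), Ccnd1 (-1.26), Ptpn11, the phosphatase SHP2 that acts downstream of FRS2 (-1.16), and Ndst1, a heparan sulfate sulfotransferase gene (-1.14). With equal library totals 23 were called, all lower. The 6 became 1 without Sirt6mKO/mdx replicate 1, 1 without Sirt6mKO/mdx replicate 2, 2 (1 higher and 1 lower) without control replicate 2, 1 without a minimum mean and 0 with one prior variance for all genes.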

How the data were processed

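RNA of sorted MuSCs was measured in 6 libraries (3 groups of 2) after removal of ribosomal RNA and sequenced by Ion Torrent. Reads were trimmed by the authors (Reaper), mapped to the mouse genome (STAR 2.4.2a; mm10, GRCm38.p5), assigned to genes (featureCounts 1.4.5-p1; reads on several genes or places left out). The authors then normalized the counts with DESeq2 1.6.0. Use of strand was not given in the sources used here. The deposited values were whole numbers that are normalized, not raw, counts (unit taken as a score), shown by skipped and doubled whole numbers from which size factors of 0.537 to 1.53 were recovered. Approximate reads are values times these factors.

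Genes with a mean of at least 5 were tested with limma 3.58.1 in R 4.3.3 on log2(value + 1), with a trended prior variance and all 6 libraries in one fit. Tests were two-sided and adjusted by Benjamini-Hochberg over 15915 genes. Fold changes on this scale understate those of low genes. Lengths, GC content and overlaps came from GENCODE M21, which held 98.5% of identifiers. Named genes were all 10 members, at most 5 called pathway genes per direction and comparison, the 3 genes most like each called member, and Sirt6, Pax7, Xist, Fos, Egr1, Mki67 and Nudt6. Other genes named (Gm16159, Fgf13, Spred3, Dusp6, Etv5 and the sixth gene called lower in Sirt6mKO/mdx against control, Ndst1) were chosen after their values were seen. The members and lists were chosen with earlier results of these data known. Replicate numbers were not used to pair the libraries in the main fit.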

Additional observations from a re-analysis of the deposited data

How the results depend on the processing

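Of 480 values of the 27 fold changes under 18 alternatives, 445 kept their direction and side of the threshold, 19 lost a call, 3 gained a call and 13 reversed. With equal library totals, which moved the median of all genes to -0.58 in both comparisons of Sirt6mKO/mdx, the genes called were 1 of 9 against mdx (Spred1) and 2 of 9 against control, and 22 and 23 of the pathway genes. In Sirt6mKO/mdx against mdx Fgfr1 became -0.0497, Fgfr4 -0.41, Spry1 -0.30 and Spred2 -0.50, and against control Fgf2 became -0.28. Centring by GC content gave -0.0736 for Spred1 in mdx against control, -0.21 for Fgfr4 in Sirt6mKO/mdx against mdx and 0.0257 for Spred2 against control. The transcripts of these genes span 41.2% (Spred1) to 58.8% (Fgfr4) G and C. One prior variance for all genes left 1, 0 and 0 of the 9 called in mdx against control, Sirt6mKO/mdx against mdx and Sirt6mKO/mdx against control, and 7, 0 and 0 pathway genes. Without a minimum mean, 0 of the 9 were called against control, and 7 and 1 pathway genes against mdx and against control. The adjusted p alone called 1 gene (Spry4) against mdx. The cause of these changes was not tested.

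Leaving out a replicate gave 1 to 2 called of the 9 in mdx against control, 0 in Sirt6mKO/mdx against mdx and 0 to 1 against control, and 8 to 14, 6 to 12 and 1 to 6 pathway genes. Fgf2 ranged from -1.89 to 0.48 in mdx against control and from -0.92 to 1.45 in Sirt6mKO/mdx against control. Against mdx Fgfr4 ranged from -0.0013 to 0.43 and Spred2 from -0.0203 to 0.28, and against control Spred2 ranged from -0.27 to 0.0244. Here a lone library is assumed to vary like the other groups.

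Deviations of replicate 1 correlated at -0.044, 0.22 and 0.048 between groups. With 2 libraries per group, these values cannot exclude a batch shared by libraries of the same replicate number. The replicate block gave 3, 0 and 1 called of the 9 and 13, 12 and 6 pathway genes, as without it. With 2 libraries per group and few reads, differences in Fgfr2, Fgfr3 and Fgf2 are poorly resolved.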
